A study of Mus musculus with 17 samples.

Results

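The 10 genes described here are markers of the pyramidal cells of the hippocampal subfields CA1, CA2 and CA3, followed in RNA-seq of mouse hippocampus after epilepsy. They were taken as a named list, matched by symbol to the Ensembl identifiers of the counted genes, and make up 10 of the 55450 genes in the count files. Wfs1, Fibcd1, Mpped1 and Pou3f1 stood for CA1, Rgs14, Map3k15 and Pcp4 for CA2, and Iyd, Bok and Cdh24 for CA3. All 10 passed the filter on low counts, which left 17615 genes for testing. Map3k15 met it only through the group where it was highest, as described below.

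The 17 libraries came from hippocampi of adult C57BL/6J mice in 3 groups. All mice had received a pair of AAV9 vectors in the right ventral hippocampus, one with a nuclease-dead Cas9 fused to the VP64 activator (dCas9A) under a doxycycline-inducible promoter and one with the guide RNA and a Camk2a promoter that biases induction towards excitatory neurons, followed by doxycycline in the diet. The control sgLacZ group (n = 5) held sham mice with a guide against the bacterial lacZ gene. The epileptic sgLacZ group (n = 6) had epilepsy induced by kainic acid, which activates glutamate receptors, injected in the right amygdala a week before the vectors, and carried the same guide. The epileptic sgKcna1 group (n = 6) differed from it in the guide, which targets the promoter of the potassium channel gene Kcna1. Sham mice with sgKcna1 were not analysed here. The labels do not say whether each library was 1 mouse, so p-values measure the spread between these libraries, which may in part be technical.

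The CA fields form a chain of excitatory neurons that receive the output of the dentate gyrus: mossy fibres contact CA3, CA3 axons reach CA1, and CA2 lies between them with its own inputs. Pyramidal cells of the fields look alike but keep distinct sets of expressed genes along the layer, which is why field-restricted transcripts are used as markers. CA3 and CA1 pyramidal cells are known to be lost in temporal lobe epilepsy and its kainate models, whereas CA2 is known as comparatively spared. In RNA of whole hippocampus, fewer cells of a type and less RNA per cell cannot be told apart. These libraries also do not show in which field a transcript lay. The marker role of each gene is background, and several members are also known outside the pyramidal layer, such as Pcp4 in dentate granule cells and Wfs1 in the striatum and amygdala.

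Between 11839240 and 28311328 reads per library fell in genes. Values are given as CPM, that is reads per gene scaled to a common library size by edgeR's TMM method, and differences as log2 fold changes with their standard error (SE). The share of unmapped reads lay between 11.0% in epileptic sgLacZ replicate 4 and 41.5% in epileptic sgKcna1 replicate 12, which was also the shallowest library. Kcna1 itself had 25.5 to 44.0 CPM in controls, 16.9 to 56.7 CPM in epileptic sgLacZ and 13.9 to 133 CPM in epileptic sgKcna1 libraries, the highest again in replicate 12, with a log2 fold change of 0.32 between the epileptic groups (adjusted p = 0.706). The sign of this estimate rested on replicate 12. The other 5 libraries labelled sgKcna1 had 13.9 to 29.5 CPM, the group medians were 19.1 CPM with sgKcna1 and 27.6 CPM with sgLacZ, and without replicate 12 the log2 fold change was −0.65 (adjusted p = 0.293), a fit chosen after seeing the data. It was also negative with limma and quality weights (−0.31) and with unmapped reads (−0.85) or the Pdha1 share described below (−0.50) as a covariate. The guide's target was thus not shown to be higher in the libraries labelled sgKcna1, which holds for every comparison with them below. By RT-qPCR the paper reports more Kcna1 in hippocampi injected with this guide than in the contralateral ones of epileptic mice. It saw no clear increase by RNA-seq and proposes that a relatively low number of Kcna1 reads may be the reason. The general pyramidal and forebrain markers Neurod6, Neurod2, Slc17a7 and Camk2a summed to between 3208 and 5255 CPM over all libraries, and none was at 0 in any.

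The promoters of 7 members were in the RefSeq table of GRCm38.p6, and those of Map3k15, Pou3f1 and Rgs14 were not. The 250 bases before the start site are shown for the 2 members that passed the test in epileptic mice, Wfs1 at chr5:36988983-36989232 (minus strand) and Bok at chr1:93685325-93685574 (plus strand), and for Pcp4 at chr16:96467356-96467605 (plus strand), which varied most among the well-counted members. Capitals mark GGGCGG, the core of the GC box that Sp1-type factors bind, on either strand, where the other strand reads CCGCCC.
Wfs1: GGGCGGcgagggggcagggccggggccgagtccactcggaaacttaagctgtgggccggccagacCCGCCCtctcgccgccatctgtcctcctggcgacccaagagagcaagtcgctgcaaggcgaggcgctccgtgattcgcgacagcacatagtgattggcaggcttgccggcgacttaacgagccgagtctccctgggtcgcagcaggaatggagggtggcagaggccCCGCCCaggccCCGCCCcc
Bok: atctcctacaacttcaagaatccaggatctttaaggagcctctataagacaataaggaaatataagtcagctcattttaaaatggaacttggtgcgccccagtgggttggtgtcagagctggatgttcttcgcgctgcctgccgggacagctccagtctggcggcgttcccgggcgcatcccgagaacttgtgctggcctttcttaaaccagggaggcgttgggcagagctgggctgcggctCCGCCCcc
Pcp4: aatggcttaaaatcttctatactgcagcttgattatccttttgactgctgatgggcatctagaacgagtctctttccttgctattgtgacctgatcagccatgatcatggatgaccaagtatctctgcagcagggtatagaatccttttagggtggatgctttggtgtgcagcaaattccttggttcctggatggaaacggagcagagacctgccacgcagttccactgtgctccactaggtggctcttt
The Wfs1 window held 4 copies of the motif and 69.6% G or C, the Bok window 1 copy and 55.2%, and the Pcp4 window 0 copies and 46.8%. Among the 32851 tabulated windows of this length, 32.7% held the motif, and the median G or C content was 52.4%. Of the 8 windows of members (Mpped1 has 2) 5 held it.

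Levels in controls differed widely between members. Per kilobase of their longest modelled transcript, control means were highest for Bok at 121 CPM per kb (SD 14.6), followed by Pou3f1 at 77.5 (SD 8.50), Mpped1 at 50.0 (SD 3.55) and Rgs14 at 41.6 (SD 4.43), and these means stood further apart than the SDs. Pcp4 at 27.8 (SD 6.65), Fibcd1 at 25.6 (SD 2.38) and Wfs1 at 22.4 (SD 3.35) came next, and these 3 means lay within an SD of their neighbours. Cdh24 at 2.79 (SD 0.768) and Iyd at 2.09 (SD 0.400) were low and differed by less than the SD of Cdh24. Map3k15 at 0.0911 (SD 0.0799) was the lowest, but reads in the 3′ end it shares with Pdha1 were not counted. Scaling by length takes reads as spread evenly along a transcript, which was not tested for the members. In controls 12.9% to 21.2% of Pdha1 reads lay outside its shared 3′ end, as described below. The SD as a percent of the mean ran in controls from 7.10% for Mpped1 to 87.7% for Map3k15. It was larger in epileptic sgKcna1 libraries than in controls for 9 members, the exception being Map3k15, and reached 83.7% for Pcp4 there.

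Epileptic mice were first compared with controls, both with sgLacZ, which asks how expression differed between these groups. Kainic acid, the prolonged seizures it set off and the epilepsy that followed went together, so their parts cannot be told apart. Of the 10 members, Wfs1 rose and Bok fell at an adjusted p under 0.05 (edgeR's quasi-likelihood test, p-values adjusted across the tested genes by the Benjamini-Hochberg method), and the other 8 did not pass. Over all 17615 genes 11% passed, so the members are not read as standing apart from the other genes. At an unadjusted p under 0.05 there were 5 members, 2 higher (Wfs1 and Map3k15) and 3 lower, beside 34.7% of all genes. The median log2 fold change of the members was 0.26, and that of all tested genes was 0.02. Values of the groups overlapped for each of the 10 members, where 4.39% of all tested genes showed no overlap.

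**Figure D1:**
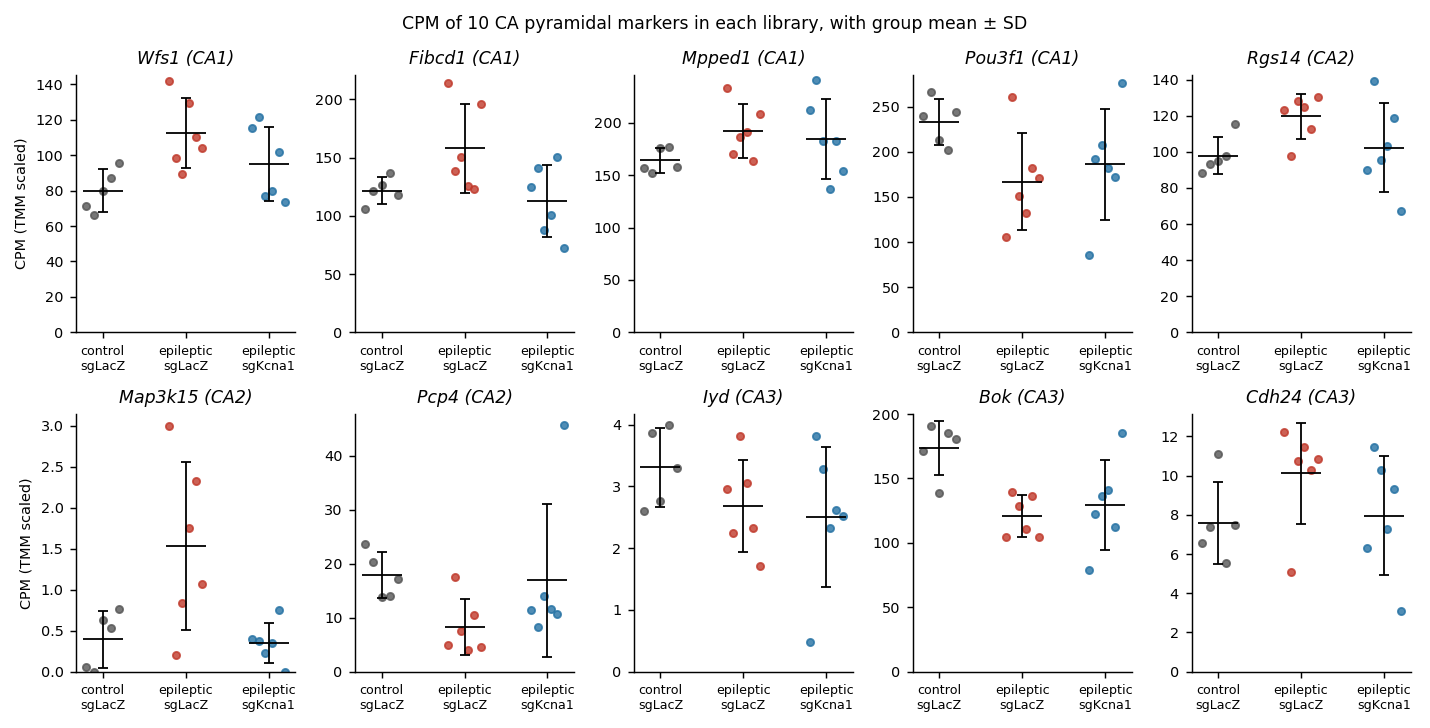
CPM (TMM scaled, linear axes from 0) of the 10 markers in every library, 1 point per library, with group means and SD as bars (control sgLacZ n = 5, epileptic sgLacZ n = 6, epileptic sgKcna1 n = 6). Wfs1 points lie mostly higher and Bok points mostly lower in epileptic sgLacZ than in control libraries, and a single epileptic sgKcna1 library stands at 45.6 CPM for Pcp4.

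Among the CA1 markers, Wfs1 encodes wolframin, a membrane protein of the endoplasmic reticulum. Its 5 control libraries had 66.0, 71.3, 79.9, 87.1 and 95.8 CPM. The 6 epileptic sgLacZ libraries ranged from 89.4 to 142 with a median of 107 CPM, so that 5 of them lay above every control. The log2 fold change was 0.49 (SE 0.15, adjusted p = 0.0478). In epileptic sgKcna1 libraries Wfs1 had 73.5 to 122 CPM with a median of 90.8, which lay between the medians of the other groups.

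Pou3f1 encodes a POU-domain transcription factor and was the only CA1 member with a lower estimate in epileptic sgLacZ mice. Controls had 202, 213, 240, 244 and 266 CPM, and epileptic sgLacZ libraries 106 to 261 with a median of 161 CPM. All epileptic sgLacZ libraries but replicate 5, at 261 CPM, lay below every control. The log2 fold change of −0.48 (SE 0.23) did not pass the test (adjusted p = 0.142). The epileptic sgKcna1 libraries spread from 86.0 to 276 CPM around a median of 187, which covered the range of the controls.

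Fibcd1, a membrane receptor that binds acetylated groups, had 106, 118, 121, 127 and 136 CPM in controls. Epileptic sgLacZ libraries lay between 123 and 214 CPM with a median of 144, with 2 libraries near 200, and the log2 fold change was 0.38 (SE 0.18, adjusted p = 0.148). Mpped1, which encodes a protein with a metallophosphoesterase domain, had 152, 157, 158, 176 and 177 CPM in controls and 163 to 233 CPM with a median of 189 in epileptic sgLacZ libraries. For both genes 4 of 6 epileptic sgLacZ libraries lay above every control. The Mpped1 log2 fold change was 0.23 (SE 0.13, adjusted p = 0.215).

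Among the CA2 markers, Pcp4 encodes a small protein that binds calmodulin and sets its calcium exchange. Controls had 13.8, 14.1, 17.2, 20.4 and 23.8 CPM, and epileptic sgLacZ libraries 4.11 to 17.5 with a median of 6.28 CPM. In 5 of 6 epileptic sgLacZ libraries Pcp4 lay below every control, and replicate 5 at 17.5 CPM lay among them. The log2 fold change was −1.12 (SE 0.42), the most negative of the 10, and missed the threshold (adjusted p = 0.0764). Epileptic sgKcna1 libraries had 8.33 to 14.1 CPM apart from replicate 12 at 45.6 CPM.

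Rgs14 encodes a regulator of G-protein signalling that is known to restrain plasticity at CA2 synapses. Controls had 88.2, 93.1, 95.0, 97.7 and 116 CPM, and epileptic sgLacZ libraries 98.0 to 130 with a median of 124 CPM. The log2 fold change was 0.29 (SE 0.14, adjusted p = 0.153), with 4 of 6 epileptic libraries above every control. In epileptic sgKcna1 libraries the range of 67.5 to 139 CPM took in all other libraries.

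Map3k15 encodes a kinase of the MAP kinase cascade, and its counts need separate treatment. Its level was 0, 0.0541, 0.533, 0.627 and 0.766 CPM in controls, 0.209 to 3.00 with a median of 1.41 CPM in epileptic sgLacZ and 0 to 0.750 with a median of 0.361 CPM in epileptic sgKcna1 libraries. These values rest on 0 to 88 reads a library, and 3 libraries had fewer than 3 reads, the count below which a gene is taken as not detected. The log2 fold change of 1.97 (SE 0.74) was the largest of the members and did not pass (adjusted p = 0.0764). Map3k15 met the filter on low counts only through the epileptic sgLacZ libraries, where it was high. Its comparisons with that group are therefore not read as support for a difference.

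On GRCm38.p6 Map3k15 lies on chromosome X from 159988204 to 160123346. Its 3′ end overlaps over 1128 bases with that of Pdha1, a subunit of the pyruvate dehydrogenase complex, on the opposite strand. Reads in the overlap were counted for neither gene when strand was ignored and for both when the strand counts were added. By this difference 1769 to 5090 reads a library were shared, and the number was the same for both genes in 17 of 17 libraries. The reads of Map3k15 alone made up 0 to 2.75% of its total with the strands added. With that total the log2 fold change turned to −0.48 (adjusted p = 0.0274), while Pdha1 with the strands added had 0.011 (adjusted p = 0.95). The added-strand total of Map3k15 is made up almost wholly of shared reads, which these counts cannot assign to either gene. The −0.48 is thus no measure of Map3k15 alone. With 0 to 88 reads a library of its own, the direction of Map3k15 was not settled.

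**Figure D2:**
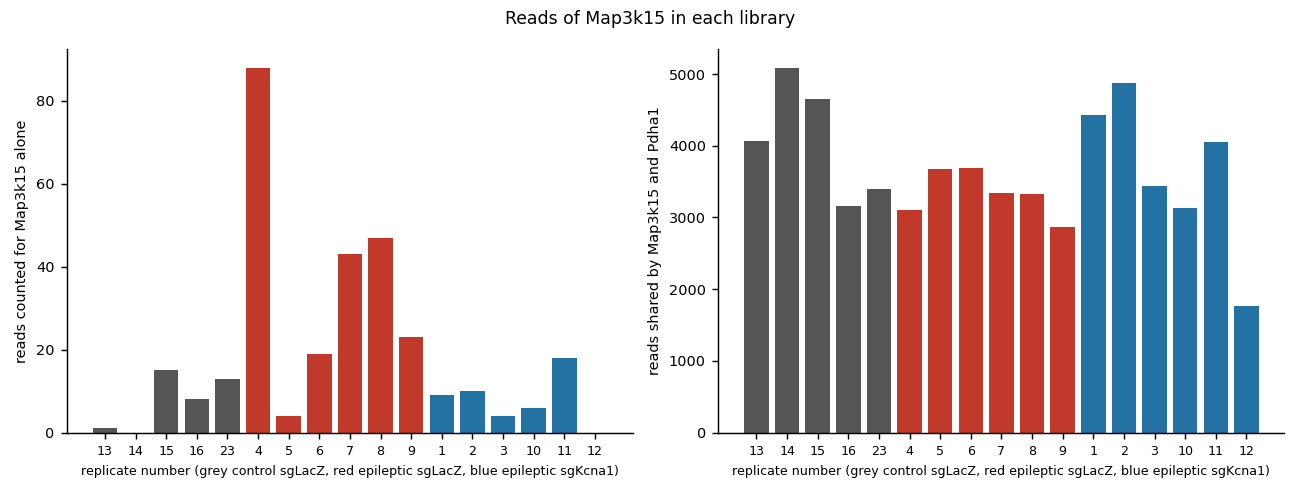
Reads counted for Map3k15 alone (left) and reads in the part it shares with Pdha1 (right) in each library, both as read counts on linear axes, bars coloured by group. The left panel reaches 88 reads and the right panel 5090, and epileptic sgLacZ replicate 4 has the most reads of Map3k15 alone.

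Among the CA3 markers, Bok encodes a BCL2-family protein with pro-apoptotic activity. Controls had 138, 172, 181, 186 and 191 CPM, and epileptic sgLacZ libraries 104 to 140 with a median of 120 CPM. All epileptic sgLacZ libraries but replicate 5, at 140 CPM, lay below every control. Bok fell by 0.52 on the log2 scale (SE 0.16, adjusted p = 0.0454). In epileptic sgKcna1 libraries Bok had 79.0 to 185 with a median of 129 CPM, and 4 of 6 lay below every control.

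Iyd encodes the iodotyrosine deiodinase of thyroid hormone metabolism, and Cdh24 a cadherin, a cell adhesion protein. Iyd had 2.60, 2.76, 3.30, 3.87 and 4.00 CPM in controls and 1.72 to 3.82 with a median of 2.64 CPM in epileptic sgLacZ libraries, a log2 fold change of −0.29 (SE 0.34, adjusted p = 0.555). Cdh24 had 5.53, 6.55, 7.37, 7.48 and 11.1 CPM in controls and 5.07 to 12.2 with a median of 10.8 CPM in epileptic sgLacZ libraries, a log2 fold change of 0.41 (SE 0.28, adjusted p = 0.297). Both were read at 11 to 359 reads a library, and neither group stood apart from the other. The 3 CA3 members thus had estimates of both signs, as did those of CA1 and CA2.

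The calls of Wfs1 and Bok depended on the choice of libraries, as did those over all genes, which fell from 1940 to 0 in 7 of the 17 fits that each left out 1 library (control replicates 13, 14, 16 and 23 and epileptic sgLacZ replicates 4, 7 and 9). Of these 17 fits, Wfs1 passed in 5 and Bok in 4. Wfs1 passed without epileptic sgLacZ replicate 5 (0.52, adjusted p = 0.0195) or 6 (0.55, 0.0491), or epileptic sgKcna1 replicate 1 (0.49, 0.0498), 2 (0.49, 0.0479) or 12 (0.49, 0.0215). Bok passed without epileptic sgLacZ replicate 5 (−0.57, 0.0166) or 8 (−0.56, 0.0413), or epileptic sgKcna1 replicate 1 (−0.52, 0.0389) or 12 (−0.53, 0.0125). In the other fits of this kind, those without 1 control library included, the adjusted p rose to at most 0.120 for Wfs1 and 0.112 for Bok. The log2 fold changes stayed between 0.41 and 0.56 for Wfs1 and between −0.59 and −0.48 for Bok.

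Without epileptic sgLacZ replicate 5, a library whose Pcp4, Pou3f1 and Bok values lay nearest the controls, 5 members passed (Wfs1, Pou3f1, Map3k15, Pcp4 and Bok) as did 5526 of all genes (31.3%). Pcp4 then had a log2 fold change of −1.49 (adjusted p = 0.011). Epileptic sgKcna1 replicate 12 is in neither group of this comparison and enters it through the shared filter, scaling and estimate of the spread. Without that library 4 members passed (Wfs1, Map3k15, Pcp4 and Bok), as did 4777 of all genes (27.1%).

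**Figure D3:**
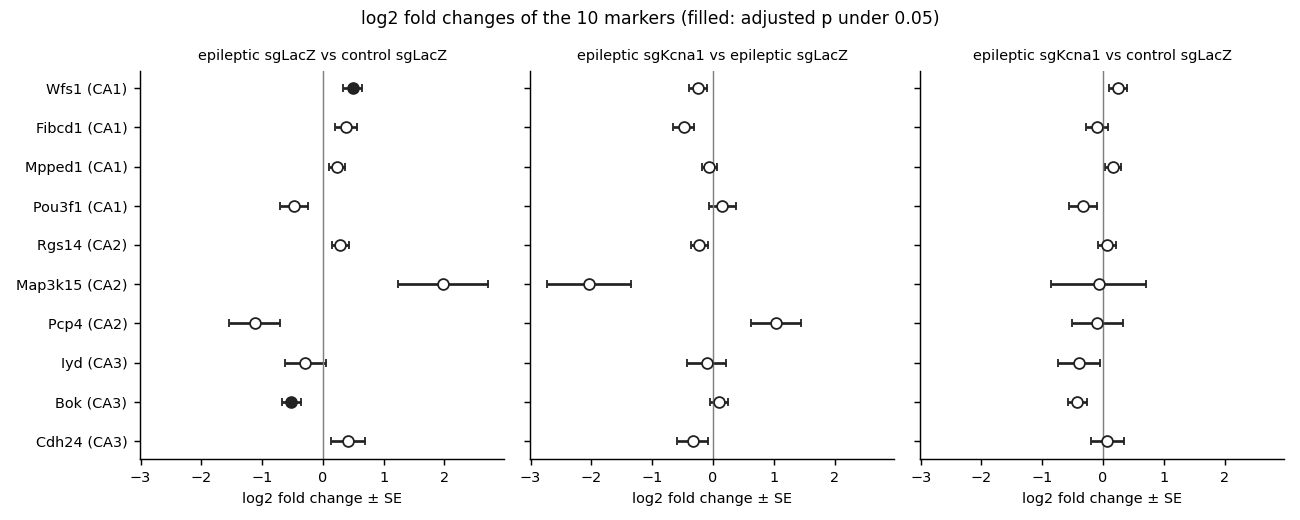
log2 fold changes with SE bars of the 10 markers in the 3 comparisons, filled where the adjusted p was under 0.05. Filled points are seen for Wfs1 at 0.49 and Bok at −0.52 in epileptic sgLacZ against control mice, and the other comparisons have open points only.

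The sgKcna1 guide was next compared with sgLacZ within epileptic mice, where both groups had been given kainic acid. The paper reports fewer seizures after doxycycline in mice with the Kcna1 guide, counted in animals under video-EEG recording. Its plan for the RNA-seq hippocampi shows behavioural tests, and it gives no seizure counts for those mice. Whether epilepsy itself was equal between these groups is thus not known. In this comparison 0 of 10 members and 0% of all tested genes passed at an adjusted p under 0.05 with edgeR, while DESeq2 called 114 and limma with quality weights 12 genes, none of them a member. At an unadjusted p under 0.05 there were 3 members beside 19.2% of all genes. They were Fibcd1 with a log2 fold change of −0.48 (SE 0.17, adjusted p = 0.213), Map3k15 with −2.04 (SE 0.69, adjusted p = 0.213) and Pcp4 with 1.03 (SE 0.41, adjusted p = 0.22). Of these, Map3k15 was tested only because of its counts in epileptic sgLacZ libraries, and its estimate is not read as support. The groups overlapped for all 10 members, with 0.483% of all genes not overlapping. For Fibcd1, epileptic sgKcna1 libraries had 72.1 to 150 with a median of 113 CPM, and 3 of them lay below every epileptic sgLacZ library.

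For Pcp4 the size of the difference rested on epileptic sgKcna1 replicate 12. Without it the log2 fold change was 0.45 (adjusted p = 0.465), and with 1 library left out at a time it ran from 0.45 to 1.40. Without epileptic sgLacZ replicate 5, Pcp4 (1.40, adjusted p = 0.0437) and Map3k15 (−2.27, adjusted p = 0.0449) passed, as did 1508 of all genes. The remaining members had log2 fold changes of −0.24 for Wfs1, −0.058 for Mpped1, 0.16 for Pou3f1, −0.22 for Rgs14, −0.10 for Iyd, 0.10 for Bok and −0.34 for Cdh24. None of these had an adjusted p below 0.336.

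Treated epileptic mice were last compared with controls, a comparison that shares its libraries with both others. Here too 0 of 10 members and 0% of all genes passed with edgeR, while DESeq2 called 36 and limma with quality weights 71 genes, none a member. Bok alone had an unadjusted p under 0.05, with a log2 fold change of −0.42 (SE 0.16, adjusted p = 0.674), beside 6.77% of all genes. No member had groups without overlap, and 1.14% of all genes did. Side by side, the estimates for Bok were −0.52 in epileptic sgLacZ and −0.42 in epileptic sgKcna1 against controls, those for Wfs1 0.49 and 0.25, and those for Pcp4 −1.12 and −0.092. Whether these pairs differ is the comparison of the epileptic groups above, which none of the 3 passed.

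Member values moved with measures of the libraries themselves. The share of unmapped reads had a median of 23.1% in control, 18.3% in epileptic sgLacZ and 22.3% in epileptic sgKcna1 libraries. Over the 17 libraries, 9 of 10 members had a Pearson correlation of log2 CPM with this share of at least 0.6 in size, 3 of them positive (Pcp4, Bok and Pou3f1) and 6 negative. Among all tested genes 42.4% reached this size. For Pcp4 r was 0.906 (Spearman's rho 0.902), within groups 0.919, and without the libraries of lowest and highest share, epileptic sgLacZ replicate 4 and epileptic sgKcna1 replicate 12, 0.906. For Bok r was 0.627 and for Wfs1 −0.694, and without those libraries they were 0.606 and −0.681. Iyd, at −0.00913, did not move with it. These are descriptions, since all members were read from the same libraries.

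A second measure came from Pdha1, whose reads fall in the shared 3′ end or outside it. The share outside was 12.9% to 21.2% in controls, 18.6% to 59.3% in epileptic sgLacZ and 8.10% to 36.3% in epileptic sgKcna1 libraries, overlapping between all groups. It had a Pearson correlation of −0.831 with the share of unmapped reads. Over the 17 libraries its correlation with log2 CPM was −0.948 for Pcp4, −0.756 for Bok, −0.755 for Pou3f1, 0.808 for Wfs1 and 0.783 for Rgs14. Epileptic sgLacZ replicate 5, the library nearest the controls for several members, had 18.6% and thus the lowest share in its group.

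**Figure D4:**
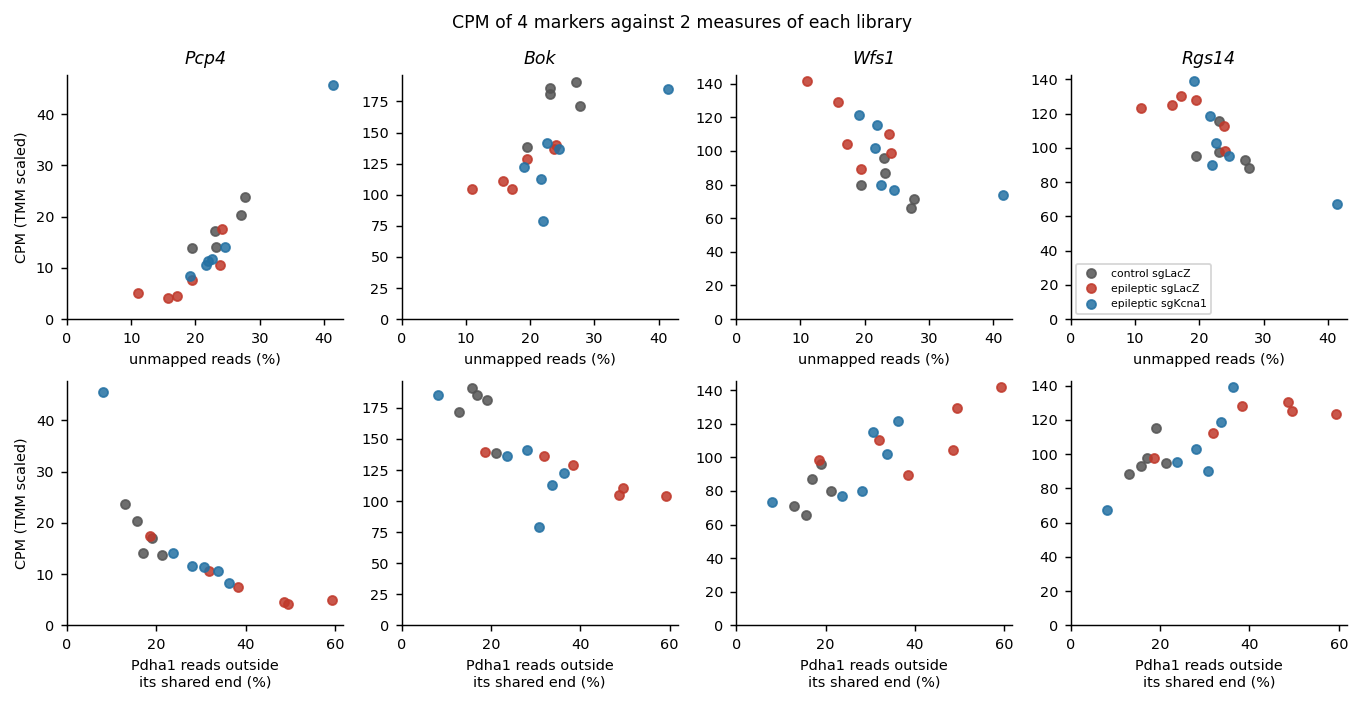
CPM of Pcp4, Bok, Wfs1 and Rgs14 (linear axes from 0) against the percent of unmapped reads (top) and the percent of Pdha1 reads outside its shared end (bottom), 1 point per library, coloured by group. Pcp4 climbs with unmapped reads to 45.6 CPM at 41.5% and falls along the lower axis, and libraries of the 3 groups lie along one band in both Pcp4 panels.

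With the share of unmapped reads as a covariate, 0 of 10 members passed in epileptic sgLacZ against control mice, with log2 fold changes of 0.32 for Wfs1 (adjusted p = 0.13) and −0.34 for Bok (adjusted p = 0.106). With the Pdha1 share as a covariate, chosen after seeing the data, 0 of 10 members and 0 of 17615 genes passed, and the estimates were 0.09 for Wfs1, −0.10 for Bok and 0.25 for Pcp4, the last of opposite sign. The Pdha1 share differed between these groups with overlap in few libraries, so that much of the epilepsy contrast and this measure cannot be told apart.

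The members differ in ways the list did not use. Pcp4 and Bok, at 641 and 1432 bases, had the shortest longest-modelled transcripts of the 10, and Fibcd1, at 4751 bases, had the longest. Pou3f1 is modelled at 3004 bases. Lengths are those of an older annotation, and Pou3f1 was matched to it by symbol.

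The other markers of the same fields were taken from a list of 18 genes, 6 a field, all of which were tested. In epileptic sgLacZ against control mice 3 of 18 passed, Ccdc3 higher and Spink8 and Hs3st4 lower, beside the 11% of all genes, with a median log2 fold change over the list of 0.03. Ccdc3 met the filter on low counts only through the epileptic sgLacZ libraries, where it was high, so its call is not read as support. The heparan sulfate sulfotransferase gene Hs3st4, listed for CA3, had 192 to 240 CPM in controls and 103 to 190 CPM in epileptic sgLacZ libraries, the only gene of the 18 without overlap there. Its log2 fold change was −0.66 (SE 0.20, adjusted p = 0.0428). Its Pearson correlation with unmapped reads over the 17 libraries was 0.865.

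Spink8, listed for CA1 and coding for a secreted peptidase inhibitor of the Kazal type, had 37.0 to 52.2 CPM in controls and 12.8 to 45.1 with a median of 21.8 CPM in epileptic sgLacZ libraries (log2 fold change −0.91, SE 0.26, adjusted p = 0.04). Wfs1 and Spink8, both CA1 genes by list, thus passed in opposite directions. Of the 17 fits that each left out 1 library, Spink8 passed in 8, Hs3st4 in 6 and Ccdc3 in 9. Ccdc3, listed for CA2, had 0 to 0.333 CPM in controls and 0.209 to 2.35 CPM in epileptic sgLacZ libraries (log2 fold change 3.71, SE 0.89, adjusted p = 0.033). It was read at 0 to 69 reads a library, and with the strand counts added its log2 fold change was 0.20 (adjusted p = 0.333). With the Pdha1 share as a covariate none of the 18 passed.

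**Figure D5:**
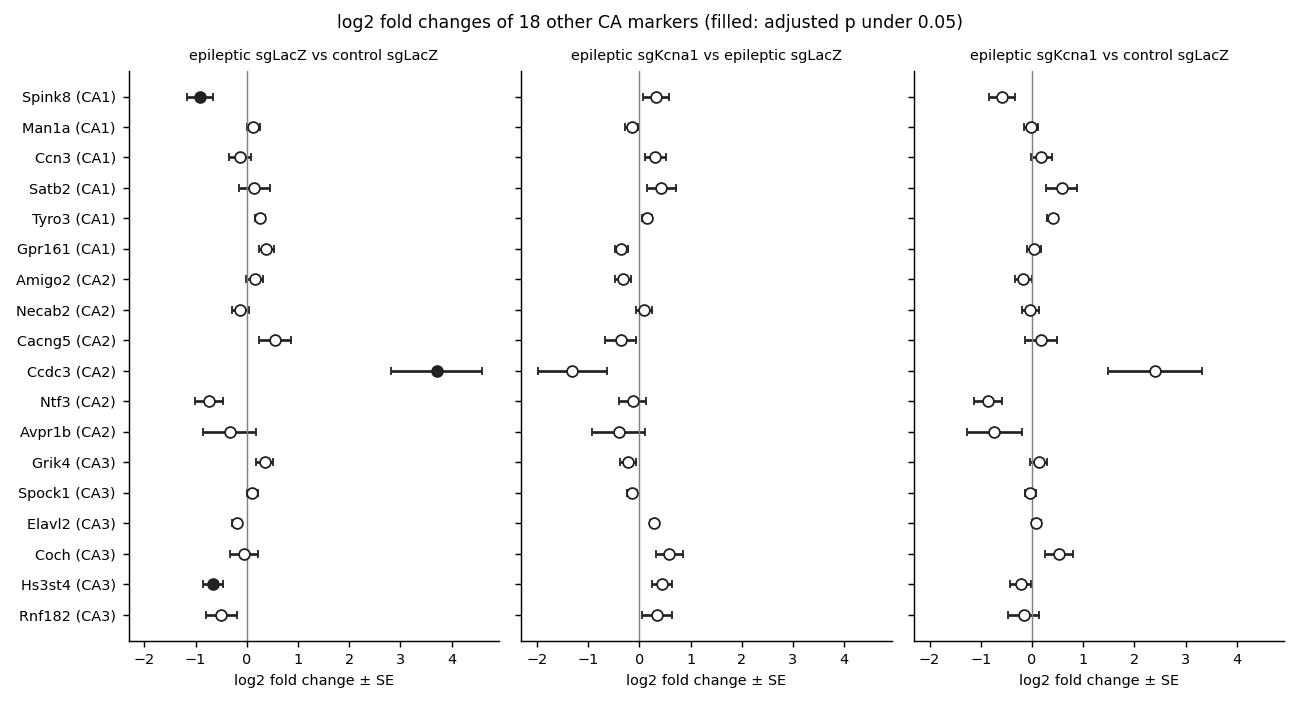
log2 fold changes with SE bars of 18 other CA1, CA2 and CA3 markers in the 3 comparisons, filled where the adjusted p was under 0.05. Spink8 at −0.91, Ccdc3 at 3.71 and Hs3st4 at −0.66 are filled in epileptic sgLacZ against control mice, and no gene is filled elsewhere.

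In the other comparisons 0 of these 18 genes passed with edgeR and 0 with DESeq2. With limma and quality weights 1 (Tyro3) passed in epileptic sgKcna1 against control mice, beside 0.403% of all genes. By unadjusted p under 0.05 there were 4 of 18 in epileptic sgKcna1 against epileptic sgLacZ mice, beside 19.2% of all genes, and 4 of 18 in epileptic sgKcna1 against control mice, beside 6.77%. In the latter comparison the receptor tyrosine kinase gene Tyro3, with 98.2 to 124 CPM in controls and 129 to 183 CPM in epileptic sgKcna1 libraries, and the neurotrophin gene Ntf3, with 12.3 to 17.8 and 4.01 to 9.58 CPM, did not overlap, as was the case for 1.14% of all genes. Their log2 fold changes were 0.41 (SE 0.10, adjusted p = 0.389) and −0.86 (SE 0.28, adjusted p = 0.609).

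Markers of other cells the tissue could hold were measured beside the members. In epileptic sgLacZ against control mice, 1 of 4 general pyramidal genes passed, the vesicular glutamate transporter Slc17a7 (log2 fold change 0.77, SE 0.21, adjusted p = 0.0366). The other pyramidal genes had −0.31 (Neurod2), −0.047 (Neurod6) and 0.069 (Camk2a), and the median of the 4 was 0.011. Of 5 astrocyte genes 2 passed, Gfap at 0.60 (adjusted p = 0.0447) and Aldh1l1 at 0.33 (adjusted p = 0.0391), and of 5 microglia genes Csf1r passed at 0.38 (adjusted p = 0.0356). With the strand counts added, Aldh1l1 had 1.28 and Csf1r 1.37 times as many reads, so part of their reads lay in gene overlaps and went uncounted. The other microglia genes had −0.27 (Cx3cr1), −0.13 (P2ry12), 0.25 (Tmem119) and −0.32 (Aif1), and the median of the 5 was −0.13. The summed astrocyte markers had 931 to 1011 CPM in control and 1025 to 1472 CPM in epileptic sgLacZ libraries. No gene passed among 7 dentate granule cell, 4 mossy cell, 6 interneuron, 5 oligodendrocyte, 4 endothelial, 4 choroid plexus, 4 thalamic, 4 striatal and 5 neocortical markers. None of these genes was at 0 in any library, and their part in the member values was not tested. Of the 6 interneuron genes 3 were lower at an unadjusted p under 0.05, beside 34.7% of all genes, and 2 had estimates above 0. Among the lower genes, Sst (log2 fold change −0.80, adjusted p = 0.0505) and Pvalb (−1.01, adjusted p = 0.0524) came near the threshold.

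Levels of markers of neighbouring tissue also varied between libraries. Summed choroid plexus markers had 1197 to 12507 CPM in control, 4390 to 11428 in epileptic sgLacZ and 291 to 7810 in epileptic sgKcna1 libraries. Summed neocortical markers had 135 to 174, 152 to 180 and 113 to 302 CPM in the same order. Among the lists without a call, the largest log2 fold changes were −0.97 for the granule cell gene Tdo2 in epileptic sgKcna1 against control mice, −0.91 for the mossy cell gene Glp1r and 0.81 for the neocortical gene Lamp5 between the epileptic groups, and −1.01 for the interneuron gene Pvalb in epileptic sgLacZ against control mice. For endothelium Cldn5 (−0.54) was the largest, in epileptic sgLacZ against control mice. Clic6 of the choroid plexus (−1.25) and the thalamic Prkcd (−0.38) were largest between the epileptic groups.

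The genes whose log2 CPM was most like that of a field's members, by mean Pearson r over the 17 libraries, were Bysl (0.459), Prkaca (0.457) and Ndel1 (0.455) for CA1. For CA2 they were Slc48a1 (0.305), Por (0.299) and Fam129a (0.297), and for CA3 Cd109 (0.569), Sertad4 (0.563) and Il20rb (0.541). The means for CA1 and CA2 hid a split. Bysl ran against Pou3f1 (r = −0.563) and reached 0.834 with another CA1 member, and Por ranged from −0.809 to 0.864 over the CA2 members. The CA3 means were uneven too, though without a change of sign. Over the CA3 members Cd109 ranged from 0.117 to 0.877, Sertad4 from 0.120 to 0.869 and Il20rb from 0.271 to 0.854. The CA1 genes had correlations of −0.823, −0.868 and −0.831 with the share of unmapped reads, in the order named, the CA2 genes of −0.696, −0.791 and −0.582, and those for CA3 of 0.0677, 0.125 and −0.125.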

How the data were processed

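RNA-seq libraries of polyadenylated RNA from 17 hippocampi were aligned by the authors to mm10 with STAR 2.7, as the submitters' processing notes give, and the deposited values are raw counts of reads per gene, not normalised, for unstranded, forward and reverse reads. The labels name a kit without strand information and the methods a stranded one. Reverse reads were 0.994 to 0.998 times the forward reads, so unstranded counts were used; in these, a read in overlapping genes counts for neither. A count of 3 reads equals 0.106 to 0.253 CPM, a floor for counting error only. The analysis used edgeR 4.0.16 under R 4.3.3: filterByExpr, TMM scaling, 1 quasi-likelihood fit of all 3 groups, two-sided tests, Benjamini-Hochberg adjustment over 17615 genes and an adjusted p threshold of 0.05. The SE was the absolute log2 fold change divided by the square root of the quasi-likelihood F. The fits were tested on simulated data. Correlations used log2 CPM with a prior count of 2. Replicates of a group differed by 8.67 to 220 times sampling noise (chi-square per degree of freedom, genes with at least 20 reads in the pair, 40 pairs), so no library was a copy.

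Members and lists were chosen with earlier results of these data known. Named are the 10 members, genes of the other lists past the threshold in a comparison or else the 1 of largest absolute change (not reported here for the oligodendrocyte and striatal lists), and for each field the 3 genes most like its members; Tyro3, Ntf3 and the Pdha1 measure were chosen after their values were seen. The lists hold 85 genes, of which 3 were matched through older symbols. DESeq2 1.42.0, limma 3.58.1 (voom with quality weights), DESeq2 size factors, no filter, added strand counts, 2-group fits, covariates (unmapped reads, sex read from Xist and Y-linked reads, Pdha1 share) and leaving out libraries were the alternatives. Coordinates and promoters are from RefSeq on GRCm38.p6; transcript lengths are from GENCODE vM1, an annotation of an older build.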

Additional observations from a re-analysis of the deposited data

Results flagged for a closer look

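In 30 groups of member values (10 genes in 3 groups), 2 had a library far from the others by Dixon's criterion, where chance gives about 1 in 20. Pcp4 had 45.6 CPM in epileptic sgKcna1 replicate 12, with a gap of 0.846 of the group's range to the next library. That library also had the most unmapped reads (41.5%), the fewest reads in genes (11839240) and the lowest share of Pdha1 reads outside its shared end (8.10%), and their part in the Pcp4 value was not tested. Cdh24 had 5.07 CPM in epileptic sgLacZ replicate 5, with a gap of 0.730 of the range, and was the lowest of its group.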

How the results depend on the processing

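The number of members passing in epileptic sgLacZ against control mice was 2, beside 11% of all genes, and became 7 with limma and quality weights (41.4% of all genes), 0 with unmapped reads as a covariate (2.43%), 0 with sex as a covariate (2.93%; 4 of 6 epileptic sgLacZ and 2 of 5 control libraries read as female) and 0 with the Pdha1 share as a covariate (0%), and leaving out 1 library gave 0 (several, such as control replicate 13) to 5 (epileptic sgLacZ replicate 5). It stayed within 1.5 times under 6 other alternatives. The other CA markers went from 3 to 9, 1, 1 and 0 under the same 4 alternatives in the same order, and to between 0 and 8 with 1 library left out (8 without epileptic sgKcna1 replicate 12). Between the epileptic groups the 0 calls became 2 members and 1 other marker without epileptic sgLacZ replicate 5, where 8.54% of all genes passed. They remained 0 in all other fits. For epileptic sgKcna1 against control mice 1 member (Bok) passed with unmapped reads as a covariate, beside 1.51% of all genes. Tyro3 alone of the other markers passed in that fit, with limma (0.403%) and without the 2 libraries of lowest and highest unmapped share (0.505%). The 2-library exclusion and the Pdha1 covariate were chosen after seeing the data. The causes of these changes were not tested.

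Some log2 fold changes, none of them past the threshold in the reported fit, changed sign. With the Pdha1 share as a covariate, in epileptic sgLacZ against control mice Fibcd1 became −0.16, Mpped1 −0.10, Pou3f1 0.14, Rgs14 −0.11, Pcp4 0.25 and Cdh24 −0.47, between the epileptic groups Mpped1 0.13, Pou3f1 −0.22, Bok −0.17 and Cdh24 0.15, and in epileptic sgKcna1 against control mice Rgs14 −0.12, Pcp4 0.31 and Cdh24 −0.32. With unmapped reads as a covariate, between the epileptic groups Mpped1 became 0.10, Pou3f1 −0.14, Bok −0.14 and Cdh24 0.057. Without the 2 libraries of lowest and highest unmapped share, Mpped1 became 0.050, Pou3f1 −0.096 and Bok −0.072 in that comparison and Map3k15 0.12 in epileptic sgKcna1 against control mice. With strand counts added, Map3k15 became −0.48 in epileptic sgLacZ against control mice and 0.28 between the epileptic groups, mostly on reads shared with Pdha1. With limma Map3k15 became 0.77 in epileptic sgKcna1 against control mice. With sex as a covariate Iyd became 0.020 between the epileptic groups. With 1 library left out, values between the epileptic groups ran from −0.15 to 0.016 for Mpped1, −0.27 to 0.12 for Iyd and −0.034 to 0.21 for Bok, and in epileptic sgKcna1 against control mice from −0.043 to 0.15 for Rgs14, −0.43 to 0.30 for Map3k15, −0.68 to 0.051 for Pcp4 and −0.059 to 0.25 for Cdh24. No paired analysis was possible because the groups share no replicate numbers. Iyd and Cdh24 at 11 to 359 reads, and Map3k15 at 0 to 88, are limited by depth.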
